A study of Mus musculus with 4 samples.

Results

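RGS proteins, the regulators of G-protein signalling, were examined in mouse CD8 T cells that carried extra BATF. The 8 genes Rgs1, Rgs2, Rgs3, Rgs10, Rgs14, Rgs16, Rgs18 and Rgs19 were taken by symbol from a table of 24312 genes, and all 8 passed the filter on low counts. The cells were P14 CD8 T cells on a C57BL/6 background, which carry a transgenic receptor for gp33, a peptide from lymphocytic choriomeningitis virus. Both groups were given 100 ng/ml gp33 for 1 day, infected with a retrovirus and kept activated for 1 further day, grown for 2 days in 10 ng/ml IL-2, sorted as CD8+ GFP+ and held for 2 more days in 1 ng/ml IL-2. The MIG group received the empty vector MSCV-IRES-GFP and the BATF group the same vector carrying BATF, a transcription factor of the AP-1 group whose leucine zipper pairs with JUN proteins. Each group had 2 poly(A) RNA libraries, which the series' design calls biological replicates without saying whether they came from separate mice, so p-values reflect only how far these libraries vary, some of which may be technical.

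Receptors for chemokines, lipids and nucleotides activate heterotrimeric G proteins by loading GTP onto the alpha subunit, which then separates from the beta and gamma subunits. RGS proteins bind the active alpha subunit and speed its hydrolysis of GTP, which ends the signal and lets the trimer form again. In lymphocytes they are best known for limiting how strongly and how long cells answer chemokines. Rgs1, Rgs2, Rgs3, Rgs16 and Rgs18 belong to the R4 subfamily, most of whose members act on Gi and Gq alpha subunits, Rgs10 and Rgs14 to the R12 subfamily, and Rgs19 to the RZ subfamily, which acts on Gi and Gz.

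Libraries held 19004726 to 24795707 fragments, and each library had 10 or more fragments for 12871 to 13227 genes. Batf stood at 36.1 and 26.5 CPM (edgeR counts per scaled library total, by the trimmed mean of M values) in MIG and at 1342 and 934 CPM in BATF. That is a log2 change of 5.18 with an SE of 0.24 (adjusted p = 0.00188 in edgeR, n = 2 per group), in the direction of the labels. All 7 genes of CD8 T cell identity were abundant, from 141 FPKM (the deposited level, which also divides by transcript length) upward in every library. Of the 7, 0 passed the test, though all had a negative log2 fold change, from −0.46 to −0.04. Before adjustment, 3 of the 7 had an edgeR p under 0.05 downward and 0 upward, where 4.09% and 6.69% of all tested genes did.

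Of the 8 RGS genes, Rgs16 rose in BATF cells, 0 fell by edgeR, and 7 did not pass. Rgs16 was about 8 times higher with added BATF. Rgs18 was lower in both BATF libraries and Rgs1 higher on average, but neither passed in the edgeR test with the filter on low counts and no replicate term, and both calls depended on the processing, while Rgs3, Rgs14 and Rgs19 stood at nearly equal levels in both groups. In the same fit, 0.884% of the 13008 genes tested were called upward and 0.208% downward at an adjusted p under 0.05. Before adjustment, 1 RGS gene was higher and 1 lower (Rgs16 and Rgs18) at p under 0.05, where 6.69% and 4.09% of all tested genes were. In bulk RNA, fewer cells with a transcript and less of it per cell cannot be told apart. The groups did not overlap in 2 of the 8, Rgs16 and Rgs18, against 38.7% of all tested genes, 19.2% with BATF higher and 19.4% with BATF lower. The median log2 fold change of the 8 was −0.03, beside −0.01 over all genes tested.

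Levels of the 8 genes, compared per length in FPKM, ran from 0.124 for Rgs18 in BATF replicate 1 to 62.3 for Rgs10 in MIG replicate 2. Rgs19 was the most abundant with a mean of 57.1 FPKM over the 4 libraries, followed by Rgs10 at 45.0, Rgs14 at 25.6, Rgs3 at 23.4 and Rgs1 at 13.6. The last 3 were Rgs16, Rgs2 and Rgs18, with means of 2.18, 1.95 and 1.11 FPKM. The ranges over the 4 libraries overlapped between every pair of neighbours in this order, and Rgs1 over Rgs16 was the 1 step that kept its direction in 4 of 4 libraries. By group means, Rgs16 was the lowest of the 8 in MIG (rank 8) and the sixth in BATF (rank 6), while ranks 1 to 5 were held by the same genes in both groups. The summed level of the 8 genes was 159 and 181 FPKM in MIG and 152 and 188 FPKM in BATF. Rgs16 made up 0.313% and 0.255% of that sum in MIG and 1.85% and 2.62% in BATF, and remained a small part of it in all 4 libraries. Rgs19 made up 28.6% to 38.8% of the sum and Rgs10 16.9% to 34.4%.

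**Figure D1:**
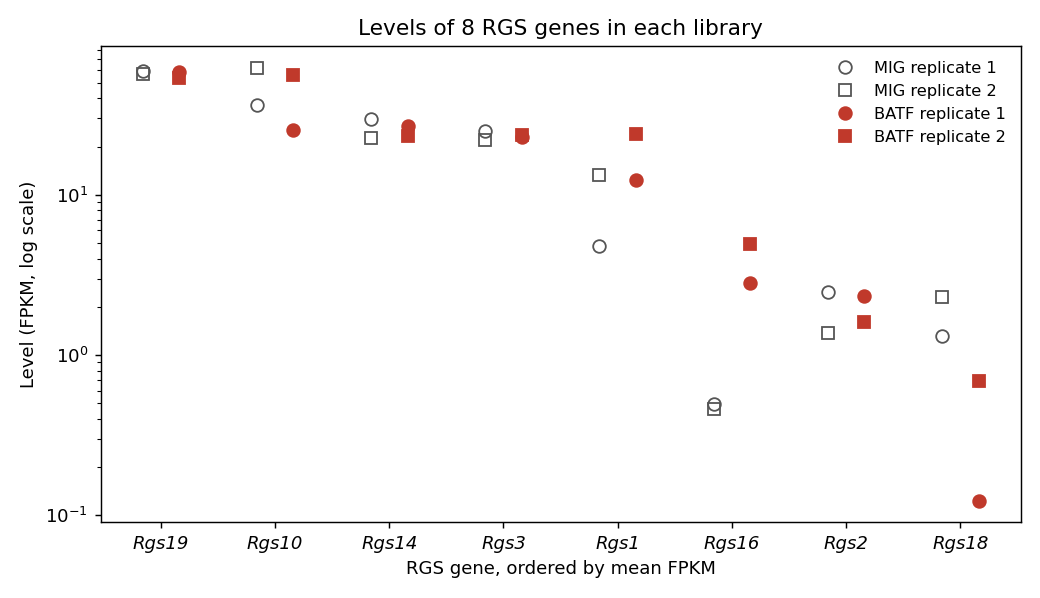
Level of each RGS gene in FPKM on a log axis, with 1 point per library; open symbols are MIG and filled symbols BATF, circles replicate 1 and squares replicate 2. Rgs16 lies at 0.461 to 0.499 FPKM in MIG and at 2.81 to 4.94 FPKM in BATF. For each of Rgs19, Rgs14 and Rgs3, the points of the 4 libraries lie close to one another.

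Within the R4 subfamily, Rgs16 encodes a small protein that is known to be induced on T cell activation and to restrain migration toward chemokines. It stood at 1.06 and 1.02 CPM in MIG and at 6.17 and 10.7 CPM in BATF. Both MIG libraries were low and nearly equal, both BATF libraries were high, and the lower BATF library was 5.81 times the higher MIG library. The levels rest on 26 and 21 fragments for MIG, and on 117 and 232 for BATF. By exact Poisson 95% intervals, which cover counting error only, the MIG counts reached up to 38.1 fragments and the BATF counts down to 96.8. The difference was 8.06-fold, a log2 change of 3.01 with an SE of 0.33 (adjusted p = 0.0180 from the quasi-likelihood test of edgeR, adjusted over all tested genes). The call was lost on log2(FPKM + 1) (log2 difference 1.68, limma adjusted p = 0.0562) and was kept on log2(FPKM + 0.1) (2.72, limma adjusted p = 0.0214). The cause of the loss was not tested.

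The 250 bases before the annotated start of Rgs16 are shown because it was the called gene, beside those of Rgs2, an R4 relative on the same chromosome whose level was nearly equal in the groups. Both come from RefSeq on GRCm38.p6, at chr1:153740103-153740352 on the plus strand for Rgs16 and at chr1:144004150-144004399 on the minus strand for Rgs2, while the authors' build was mm9. Each is written 5′ to 3′, with capitals where the CCAAT box or the GC box (GGGCGG) matches on either strand, and overlapping matches run together.
Rgs16: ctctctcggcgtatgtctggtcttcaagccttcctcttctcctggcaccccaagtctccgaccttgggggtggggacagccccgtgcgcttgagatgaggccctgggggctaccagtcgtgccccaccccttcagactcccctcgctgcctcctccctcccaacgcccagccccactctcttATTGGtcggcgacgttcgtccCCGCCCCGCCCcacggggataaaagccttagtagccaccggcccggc
Rgs2: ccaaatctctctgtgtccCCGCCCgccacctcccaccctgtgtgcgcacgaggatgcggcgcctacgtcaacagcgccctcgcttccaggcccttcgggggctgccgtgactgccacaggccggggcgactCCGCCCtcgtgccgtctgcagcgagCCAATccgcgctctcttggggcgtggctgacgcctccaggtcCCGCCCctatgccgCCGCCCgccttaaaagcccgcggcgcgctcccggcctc

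Rgs16 holds 1 CCAAT match, which begins 68 bases before the start, and 2 overlapping GC box matches at 47 and 42 bases before it. Rgs2 holds 1 CCAAT match at 94 bases and 4 GC box matches, the nearest of them at 38 bases. Of 32851 such windows of 250 bases in the RefSeq table, 33.8% hold the CCAAT box and 32.7% the GC box. The AP-1 motif TGANTCA, which BATF with a JUN partner is known to bind, was searched on both strands and is present in 6.75% of all windows. The cyclic AMP response element TGACGTCA is present in 1.55%. Neither was found in the 8 windows of the 5 genes matched, Rgs2, Rgs3, Rgs10, Rgs16 and Rgs19, which says only that these letters are not in these windows.

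In the RefSeq order of protein-coding genes, Rgs16 lies next to Rgs8, another R4 gene. Rgs8, looked at after its values were seen, stood at 0.776 and 0.631 CPM in MIG and at 1.63 and 1.79 CPM in BATF. Its groups did not overlap, but it did not pass (log2 change 1.27, SE 0.33, adjusted p = 0.183 in edgeR).

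Rgs18 encodes the R4 protein best known from platelets and megakaryocytes, and it stood at 2.17 and 3.98 CPM in MIG and at 0.211 and 1.15 CPM in BATF. Both BATF libraries were below both MIG libraries, and the BATF libraries differed from each other by 5.45-fold. The counts were low, 53 and 82 fragments in MIG against 4 and 25 in BATF, and the 95% Poisson interval of the 4 fragments ran from 1.09 to 10.2. Rgs18 was abundant enough to be tested only through the MIG libraries, where it is high. The log2 change was −2.12 with an SE of 0.63 (adjusted p = 0.236 in edgeR). DESeq2 (log2 change −2.15, adjusted p = 0.0391, where it called 0.729% of its genes downward), edgeR with no filter on low counts (adjusted p = 0.0403) and edgeR without BATF replicate 2 (log2 change −3.82, adjusted p = 0.00479) called it downward, whereas it stood at −1.40 with BATF replicate 1 left out (adjusted p = 0.144 in edgeR).

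The 6 platelet and megakaryocyte markers were very low, and as a sum they too stood lower in BATF. That sum was 1.80 and 3.74 CPM in MIG and 1.63 and 1.38 CPM in BATF. Pf4, the platelet chemokine, had 3 and 18 fragments in MIG and 1 in each BATF library, and Ppbp had 4 and 9 against 2 and 0. Of the 6, 2 were abundant enough to be tested (Itga2b and Gp1ba) and 0 of these passed. Their part in the Rgs18 difference was not tested.

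Rgs1, which dampens chemokine responses of lymphocytes and is known to be raised in activated and tissue-resident T cells, varied widely within both groups. It stood at 5.43 and 15.6 CPM in MIG and at 14.3 and 27.5 CPM in BATF. Replicate 2 was the higher library in both groups, and the lower BATF library fell just under the higher MIG library, at 0.918 of its level. The 2 MIG libraries differed by 2.88-fold, a spread that 0.177% of tested genes reached in MIG, where the median gene differed by 1.13-fold. In BATF the spread was 1.92-fold, reached by 1.38% of tested genes. In the same edgeR test Rgs1 did not pass (log2 change 1.00, SE 0.49, adjusted p = 0.565 in edgeR). The value depended on the library left out: leaving out MIG replicate 2 gave 1.94 (adjusted p = 0.00146 in edgeR) and 1.40 without BATF replicate 1 (0.00840), but 0.43 without MIG replicate 1 (0.670) and 0.46 without BATF replicate 2 (adjusted p = 1.00 in edgeR).

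Rgs2, an R4 protein that prefers Gq alpha subunits, stood at 6.99 and 4.03 CPM in MIG and at 6.75 and 4.55 CPM in BATF. Replicate 1 was the higher library in both groups and the groups overlapped (log2 change 0.02, SE 0.31, adjusted p = 0.997 in edgeR). Its sign turned without MIG replicate 2 (−0.32) and without BATF replicate 1 (−0.28). Rgs3, a larger R4 protein that also binds beta and gamma subunits, stood at 94.7 and 85.4 CPM in MIG and at 88.2 and 90.2 CPM in BATF, a log2 change of −0.01 with an SE of 0.09 (adjusted p = 0.990 in edgeR). Its libraries differed by at most 1.11-fold within a group.

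In the RefSeq order, Rgs2, Rgs13, Rgs1, Rgs21 and Rgs18 follow each other with no other protein-coding gene between them. The 3 members of this run did not share a direction, with log2 fold changes of 0.02, 1.00 and −2.12 for Rgs2, Rgs1 and Rgs18, none of which passed in edgeR with the filter on low counts and no replicate term. Rgs13 had 1 to 3 fragments and Rgs21 0 to 2 in a library, too few to test.

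Among R12 members, Rgs10, a small protein that acts on Gi alpha subunits and is abundant in immune cells, stood at 24.3 and 43.4 CPM in MIG and at 17.7 and 38.3 CPM in BATF. As for Rgs1 and Rgs18, replicate 2 was the higher library in both groups. The difference between libraries of a group (1.79-fold in MIG and 2.16-fold in BATF) was larger than that between the groups. Its log2 change was −0.27 with an SE of 0.39 (adjusted p = 0.926 in edgeR), and the sign turned without MIG replicate 2 (0.21) and without BATF replicate 1 (0.18). Rgs14, a scaffold that also binds Ras and Raf proteins and inactive Gi alpha subunits, stood at 63.7 and 50.4 CPM in MIG and at 59.3 and 51.1 CPM in BATF. Its groups overlapped (log2 change −0.05, SE 0.14, adjusted p = 0.969 in edgeR), and the sign turned without MIG replicate 1 (0.13) and without BATF replicate 2 (0.05).

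Rgs19, the RZ member also known as GAIP, stood at 77.1 and 74.0 CPM in MIG and at 76.9 and 67.2 CPM in BATF. The groups overlapped, with a log2 change of −0.07 with an SE of 0.10 (adjusted p = 0.923 in edgeR). The sign turned without BATF replicate 2 (0.02). The standard errors of Rgs3, Rgs14 and Rgs19, 0.09 to 0.14 on the log2 scale, were smaller than those of the other 5 members, 0.31 to 0.63.

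**Figure D2:**
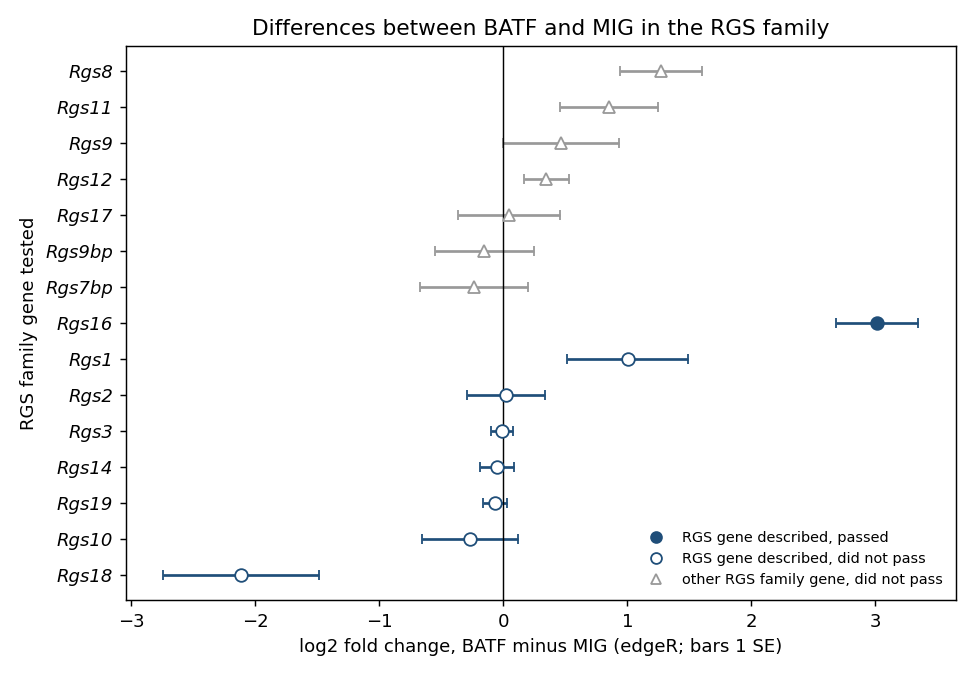
log2 fold change of BATF minus MIG with 1 SE to each side, for the 8 RGS genes (blue circles) and the 7 other RGS family genes abundant enough to test (grey triangles); the filled symbol passed at an edgeR adjusted p under 0.05. Rgs16 at 3.01 is the 1 filled symbol, Rgs18 lies at −2.12, and Rgs3, Rgs14 and Rgs19 lie at 0 within 1 SE.

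**Figure D3:**
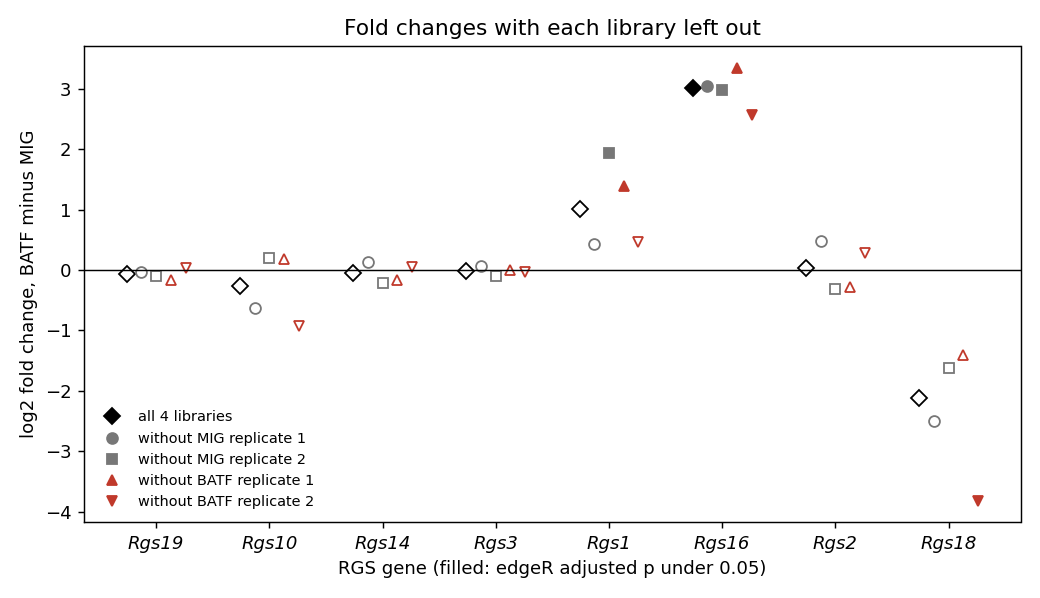
log2 fold change of BATF minus MIG for each RGS gene with all 4 libraries (diamond) and with each library left out in turn; filled symbols have an edgeR adjusted p under 0.05. Rgs16 passes in all 5 fits, from 2.56 to 3.35, whereas Rgs1 passes in 2 of them and Rgs18 in 1.

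Genes whose levels over the 4 libraries lay nearest to those of Rgs16 were sought among 9361 other genes averaging 5 CPM or more. The 3 nearest by Euclidean distance of centred log2 CPM were Fam20a (distance 0.504), Cdkn2b (0.541) and Pparg (0.548). Fam20a, a pseudokinase of the secretory pathway, stood at 2.94 and 4.22 CPM in MIG and at 25.9 and 36.8 CPM in BATF. Cdkn2b, a cyclin-dependent kinase inhibitor, and Pparg, a nuclear receptor, had log2 fold changes of 2.41 and 2.65. With 4 libraries in 2 groups, this distance is small for any gene that rose by a similar amount.

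The rest of the family stood at 4.68 FPKM or less in every library. The mean of Rgs12 over the 4 libraries, 3.48 FPKM, was above those of Rgs16, Rgs2 and Rgs18. Of 16 other RGS family genes, 7 were abundant enough to test and 9 were not, and of the 7 edgeR called 0. Before adjustment 1 (Rgs8) was higher and 0 lower at p under 0.05, where 6.69% and 4.09% of all tested genes were. DESeq2 and limma-voom called 0 of the 16 as well, while edgeR with a replicate term called Rgs8 upward. The median log2 change of the 7 was 0.35. The most abundant was Rgs12, a large R12 protein, at 3.47 and 2.81 FPKM in MIG and 4.68 and 2.98 FPKM in BATF, with a log2 change of 0.35 with an SE of 0.18 (adjusted p = 0.604 in edgeR). Proteins that carry an RGS or RGS-like domain beside other functions, such as the GPCR kinases and axins, were all tested, and of these 14 edgeR called 0, while before adjustment 0 had p under 0.05 upward and 1 downward. DESeq2 and limma-voom called 0 of them, while edgeR with a replicate term called Adrbk1 upward and Grk6 downward. The log2 fold changes of the 14 ran from −0.24 to 0.28, with a median of −0.00061. The most abundant was Arhgef1, whose protein binds G12 and G13 alpha subunits, at 336 and 230 FPKM in MIG and 274 and 248 FPKM with BATF (log2 change −0.11, adjusted p = 0.926 in edgeR). Its sign turned without MIG replicate 1 (0.16), and edgeR called it downward with MIG replicate 2 left out (−0.34, adjusted p = 0.0352 in edgeR).

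Among the substrates of RGS proteins, 1 of 14 tested G-protein alpha subunits rose and 0 fell. Over all tested genes, 0.884% were called upward and 0.208% downward. Before adjustment, 4 of the 14 had an edgeR p under 0.05 upward and 1 downward, where 6.69% and 4.09% of all tested genes did. Gnaz, which encodes the slowly hydrolysing Gz alpha subunit on which RZ proteins act, had 5 and 4 fragments in the MIG libraries against 55 and 41 in the BATF libraries. It was abundant enough to be tested only through the BATF libraries, where it is high, so its place among the 14 is not independent of its difference. The same holds for Gnai1, Gna14, Gng7, Gng11, Adcy5, Plcb1, Plcb4 and the receptor Ccr1. Gng3 and S1pr5, with negative log2 changes, were abundant enough to be tested only through the MIG libraries. For Gnaz, both BATF libraries were high and both MIG libraries had 5 fragments or fewer (log2 change 3.54, SE 0.45, adjusted p = 0.0229 in edgeR). On log2(FPKM + 1) the call was lost (log2 difference 0.90, limma adjusted p = 0.0546). Even in BATF it stood at only 1.26 and 0.833 FPKM, beside 527 and 528 FPKM for Gnai2, the main Gi alpha subunit of lymphocytes. Gnai2 itself had a log2 change of 0.10 with an SE of 0.09 (adjusted p = 0.856 in edgeR), and Gnas, the most abundant alpha subunit, one of 0.12 ± 0.08 SE (0.695).

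Gnaq and Gnai1, named after their values were seen, lay higher in both BATF libraries without passing. Gnaq, the Gq alpha subunit, stood at 14.7 and 19.2 CPM in MIG and at 32.0 and 30.8 CPM with BATF (log2 change 0.89, SE 0.15, adjusted p = 0.0579 in edgeR). DESeq2 called it upward (adjusted p = 0.000211), as did edgeR with no filter (0.00448) and with any 1 library left out (adjusted p from 0.000381 to 0.0488). Gnai1 was low, with 10 and 5 fragments in the MIG libraries against 40 and 21 with BATF (log2 change 2.18, SE 0.55, adjusted p = 0.164 in edgeR), and passed with no filter (0.0341) and without BATF replicate 2 (0.0294).

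Beta and gamma subunits, effectors and other regulators of alpha subunits gave no calls in edgeR with the filter on low counts, no replicate term and no library left out. Of 12 tested beta and gamma subunits edgeR called 0, while before adjustment 3 had p under 0.05 upward and 0 downward. Beside this and the counts below, 6.69% of all tested genes were upward and 4.09% downward before adjustment. Gng11, a gamma subunit named after its values were seen, had 3 and 0 fragments in the MIG libraries against 20 and 16 with BATF, and did not pass (adjusted p = 0.121 in edgeR) except with no filter or a replicate term. Gnb2 was the most abundant at 324 and 267 FPKM in MIG and 311 and 316 FPKM with BATF (log2 change 0.09, which turned to −0.02 without MIG replicate 2). Of 20 effectors, among them adenylyl cyclases, phospholipase C beta forms and PI3K gamma subunits, edgeR called 0, while before adjustment 5 had p under 0.05 upward and 1 downward. Prkar1a, the regulatory subunit of protein kinase A and the most abundant of them, had a log2 change of 0.27 with an SE of 0.09 (adjusted p = 0.275 in edgeR) but was called without MIG replicate 2 (0.0369). Of 7 other regulators, among them arrestins and the GPSM proteins, edgeR called 0, while before adjustment 1 had p under 0.05 upward and 1 downward. Arrb2, beta-arrestin 2, was the most abundant of these (log2 change −0.06, which turned to 0.02 without BATF replicate 1). The median log2 change was 0.15 for beta and gamma subunits, 0.22 for effectors and 0.0027 for the other regulators, as against 0.15 for alpha subunits and −0.01 for all genes tested. Genes tested only through the group where they are high, as named above, are part of these medians and of the counts before adjustment. DESeq2 called Arrb1 upward and Pik3r5 downward in these 3 lists, edgeR with no filter called Arrb1 and Gng11 upward, and limma-voom called 0.

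Receptors upstream of the G proteins moved in both directions. Of 32 tested G-protein coupled receptors of T cells, Ccr1 and Ltb4r1 rose, Ccr7 and P2ry14 fell and 28 did not pass. Over all tested genes, 0.884% were called upward and 0.208% downward. Before adjustment, 8 of the 32 had an edgeR p under 0.05 upward and 7 downward, where 6.69% and 4.09% of all tested genes did. The median log2 fold change of the 32 was −0.00036, with 16 members on each side of 0. Ltb4r1, the high-affinity receptor for the lipid attractant leukotriene B4, stood at 6.86 and 4.08 CPM in MIG and at 25.3 and 26.1 CPM with BATF (log2 change 2.22, SE 0.23, adjusted p = 0.0154 in edgeR). Ccr1, a receptor for inflammatory chemokines, stood at 0.449 and 0.777 CPM in MIG and at 8.65 and 13.3 CPM in BATF. The 2 that fell were Ccr7, the lymph node homing receptor, with a log2 fold change of −0.77 ± 0.12 SE, and P2ry14, a receptor for UDP-sugars, with −1.12 ± 0.14 SE. Ccr7 lost its call without BATF replicate 2 (adjusted p = 0.0671 in edgeR) and on both FPKM scales (limma adjusted p = 0.102 and 0.0679), while Ccr1, Ltb4r1 and P2ry14 kept theirs in the 12 alternatives run. Ptger4, a prostaglandin E2 receptor named after its values were seen, stood at 39.4 and 38.4 CPM in MIG and at 55.6 and 57.9 CPM in BATF and narrowly missed (adjusted p = 0.0531 in edgeR). It was called upward in 5 of the 12 alternatives, among them DESeq2 (adjusted p = 0.0133) and edgeR with no filter (0.0216), without MIG replicate 1 (0.0414) and without MIG replicate 2 (0.0130). Gpr183, also named after its values were seen, lay lower in BATF, at 4.53 and 3.72 CPM against 10.7 and 6.94 CPM in MIG. It did not pass (log2 change −1.10, SE 0.25, adjusted p = 0.135 in edgeR), but DESeq2 and edgeR with no filter called it downward. Cxcr6, the most abundant receptor at 169 and 188 FPKM in MIG and 185 and 223 FPKM in BATF, did not pass (log2 change 0.19, SE 0.12, adjusted p = 0.675 in edgeR).

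**Figure D4:**
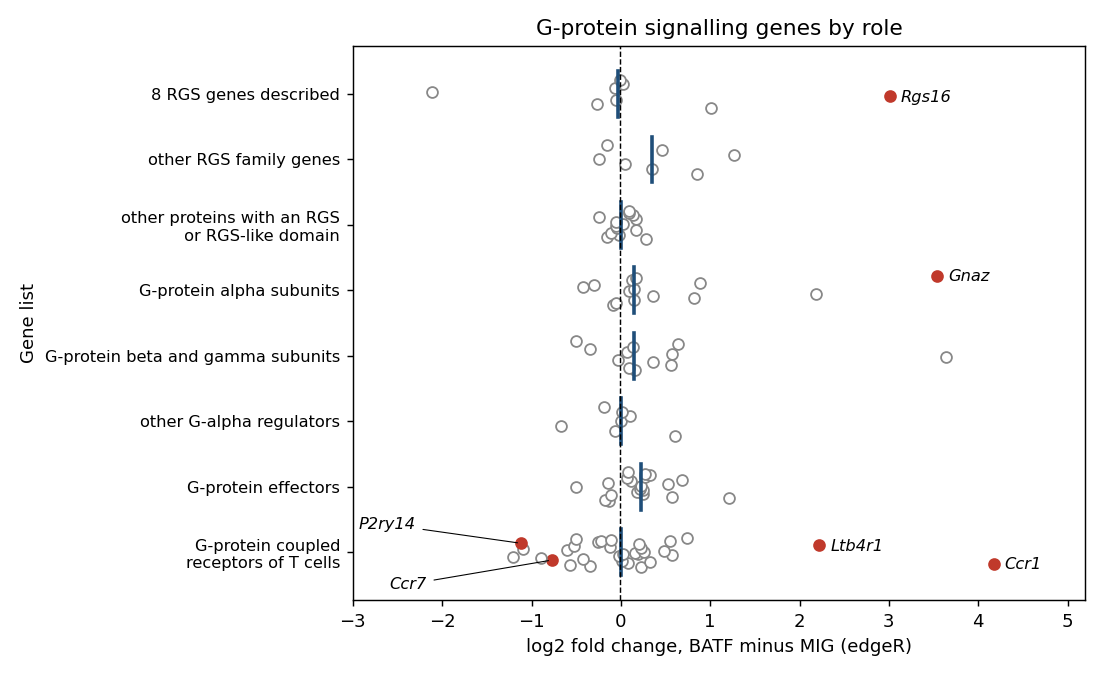
log2 fold change of BATF minus MIG for each tested gene, in rows by role in G-protein signalling; red filled points passed at an edgeR adjusted p under 0.05, blue bars are list medians and the dashed line is the median of all genes tested. The 6 named points are Rgs16, Gnaz, Ltb4r1 and Ccr1 to the right and Ccr7 and P2ry14 to the left.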

How the data were processed

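Poly(A) RNA libraries, 2 per group, were compared between BATF and MIG. The submitters' processing notes name TopHat2 2.1.1, Cufflinks 2.2.2, Cuffdiff and mm9 as the genome build. Annotation and strandedness were not stated in the sources used here, so overlapping antisense transcripts could not be told apart. The deposited table gives estimated counts (97.6% whole to within 1e-9), a scaled fragment signal that served as a check of the authors' factors (0.889 to 1.11), and FPKM, per the file headers. It numbers replicates 0 and 1, which were read as replicates 1 and 2 of the titles; the condition alone sets the group.

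Rounded estimated counts went into edgeR 4.0.16 under R 4.3.3 (filterByExpr, trimmed mean of M values, quasi-likelihood test, no covariate), with Benjamini-Hochberg adjustment over 13008 genes and a threshold of 0.05. The SE of a log2 change is its coefficient, fitted without a prior count, over the root of F. With 2 libraries against 2, a two-sided exact permutation test cannot give a p below 0.333, so none was run. The fit was tested on simulated data. Libraries within a group differed beyond counting noise (chi-square per gene 17.7 in MIG and 9.49 in BATF). Alternatives were edgeR with RLE (size factors as in DESeq2) or library totals only, no filter, DESeq2 1.42.0, limma-voom and limma on log2 FPKM (limma 3.58.1, pseudocounts 1 and 0.1), a replicate block, and each library left out; a lone library is then assumed to vary like the other group.

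The members and the 8 lists of G-protein signalling genes were chosen with earlier results of these data known, so their counts are descriptions. Named were Batf, the 8 members, each called gene and the most abundant gene (mean FPKM) of every list, and the 3 genes nearest to a called member. Of the other cell markers, those of platelets stand in the report; B cell (11.9 to 18.0 CPM summed, nearly all Cd79b), myeloid (3.40 to 8.42), CD4 and regulatory T cell (2.44 to 4.04) and NK cell (0.286 to 0.460) markers were low in all libraries, and 0 of their 5 tested genes passed. Emr1 was not matched.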

Additional observations from a re-analysis of the deposited data

How the results depend on the processing

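Rgs16 kept its direction in the 12 alternatives and its call in 11, with log2 fold changes from 1.68 to 3.35; the exception was limma on log2(FPKM + 1), which called 0 of the 8 RGS genes upward. With 1 library left out, edgeR called 1 to 2 of the 8 upward and 0 to 1 downward. DESeq2 and edgeR with no filter on low counts each called 1 downward (Rgs18). Of the other 128 listed genes, 3 were called upward and 2 downward by edgeR as reported, 5 to 8 upward and 1 to 7 downward with 1 library left out, 6 and 4 by DESeq2, 8 upward with no filter, and 1 downward by limma on log2(FPKM + 1) or on log2(FPKM + 0.1). Over all genes, 115 upward and 27 downward calls became 253 and 92 by DESeq2, 266 and 83 with no filter, 40 and 4 by limma on log2(FPKM + 1), and 71 and 10 on log2(FPKM + 0.1), and ran from 192 to 320 and from 55 to 269 with 1 library left out. For the FPKM scales the cause was not tested.

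Same-numbered libraries deviated from their group means together (correlation 0.181 over 13008 genes). With 2 pairs and no label that ties the numbers to a mouse or day, whether these libraries share more than a number cannot be told. Taking the number as a replicate block leaves 1 residual degree of freedom, and edgeR then called 2 of the 8 upward (Rgs1 and Rgs16) and 1 downward (Rgs18), 22 and 12 of the other listed genes, and 916 and 588 of all genes. Gnaq, Gnai1, Prkar1a, Ptger4, Gng11, Rgs8 and Adrbk1 were among the listed genes it called upward, and Gpr183 and Grk6 among those it called downward.

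Signs that turned belonged to genes that did not pass in edgeR as reported. Over the 4 fits with 1 library left out, the log2 change of Rgs2 ran from −0.32 to 0.49, that of Rgs3 from −0.093 to 0.067, Rgs10 from −0.93 to 0.21, Rgs14 from −0.22 to 0.13 and Rgs19 from −0.17 to 0.025. Arhgef1 ran from −0.34 to 0.16, Gnb2 from −0.021 to 0.21 and Arrb2 from −0.15 to 0.019. Other scalings moved the median log2 fold change of all genes by under 0.01. Low counts limit the values of Rgs18, Gnaz, Gnai1 and Gng11, each with a library of 5 fragments or fewer.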
